A study of Mus musculus with 8 samples.

Results

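The smooth muscle contractile genes are 10 genes chosen by symbol, *Acta2*, *Actg2*, *Tagln*, *Cnn1*, *Cald1*, *Tpm1*, *Tpm2*, *Myh11*, *Myl9* and *Mylk*, out of 31053 genes in the count tables. They were followed in single cells of 8 B16F10 tumours, across fibroblast groups, other cell types and both host genotypes. B16F10 is a mouse melanoma cell line, which keeps its own *Atf4* in either host. The tumours were subcutaneous and were harvested at 300 mm3, 4 from Atf4wt/wt and 4 from Atf4D/D mice, 1 library each, and the labels give an age of 12 weeks for each mouse. Both genotypes carried a tamoxifen-inducible Cre driven from the ubiquitous Rosa26 locus (Rosa26::CreERT2) and both received tamoxifen, so that in Atf4D/D mice the floxed *Atf4* alleles are excised throughout the host and not in fibroblasts alone. The paper describes this excision as efficient though incomplete. The study asked what host ATF4 does in cancer-associated fibroblasts (CAFs), for which *Acta2* is a customary activation marker.

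Contraction of smooth muscle rests on actin filaments, which carry tropomyosin and caldesmon, and on myosin II, which pulls on them once myosin light chain kinase has phosphorylated its regulatory light chain. Vascular smooth muscle cells use the whole set, pericytes a part of it, and fibroblasts that become myofibroblasts switch on the actin, transgelin and tropomyosin genes without most of the smooth muscle myosin. Many of these genes are driven by serum response factor (SRF) with its MRTF and myocardin cofactors, which bind CArG boxes near the start site.

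A count here is a number of unique molecular identifiers (UMIs), 1 for each captured transcript 3′ end, and levels are in CPM, the UMIs of a gene relative to all UMIs of the same cells. The libraries held between 37283598 and 74942137 UMIs in 41925 barcodes, of which 399 occurred in more than 1 library (6 among CAF-like cells and 0 among perivascular-like cells). The label of sex disagreed with *Xist*, the RNA of the inactive X chromosome, in host cells of all 4 Atf4wt/wt tumours (440 and 462 CPM in the 2 labelled male, 0 in the 2 labelled female) and in none of the Atf4D/D tumours. *Atf4* in CAF-like cells was 278, 299, 323 and 290 CPM in the Atf4wt/wt tumours and 151, 104, 171 and 95.2 in the Atf4D/D tumours. *Atf4* thus fell on the side that the genotype labels give, with no overlap, and sex as labelled was kept out of the main test. The source of the *Atf4* UMIs left in Atf4D/D tumours was not tested. Cells were sorted into classes by clustering without the 10 genes and their related genes, 71 symbols in all, so the classes were not drawn from the contractile genes. The regulator *Notch3*, which is also a mural marker, was kept in. CAF-like cells numbered 731, that is 71, 51, 64 and 70 in Atf4wt/wt tumours 1 to 4 and 125, 97, 10 and 243 in Atf4D/D tumours 1 to 4. Atf4D/D tumour 3, with 10 such cells and 40826 UMIs, is the smallest sum. The fit of *Acta2* is given with and without it. Those of *Tagln*, *Tpm2*, *Myl9* and *Mylk* are given with their range when 1 tumour is left out.

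By the GENCODE annotation of GRCm38, none of the 10 genes overlaps another gene on its own strand. *Acta2* is at chr19:34241090-34255590, *Myl9* at chr2:156775420-156781658, *Tpm1* at chr9:67022590-67049406, *Tagln* at chr9:45929619-45936058 and *Cald1* at chr6:34598500-34775473. *Tagln*, *Cald1* and *Mylk* overlap genes of the opposite strand. RefSeq promoter windows, the 250 bases before a start site (GRCm38.p6), were at hand for 7 of the 10 genes, in 8 windows. They were searched for the CArG box, a motif that reads the same on both strands, because all of the genes but *Cnn1* were highest in the same cells. The stretches with a box are shown for *Acta2*, *Myl9* and *Tpm1*, 5′ to 3′ on the strand of the gene, with the box in capitals.
Acta2, chr19:34255438-34255467, minus strand: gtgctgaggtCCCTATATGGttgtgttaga
Acta2, chr19:34255388-34255417, minus strand: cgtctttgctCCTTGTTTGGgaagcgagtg
Myl9, chr2:156775214-156775419, plus strand: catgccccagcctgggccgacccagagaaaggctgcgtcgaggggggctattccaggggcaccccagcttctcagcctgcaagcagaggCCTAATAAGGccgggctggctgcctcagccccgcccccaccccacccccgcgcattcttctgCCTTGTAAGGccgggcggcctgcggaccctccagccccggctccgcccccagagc
Tpm1, chr9:67049407-67049463, minus strand: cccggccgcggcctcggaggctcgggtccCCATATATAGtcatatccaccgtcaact
The first box of *Myl9* is an exact match and the others differ from the motif by 1 letter. The boxes begin 84 and 34 bases before the RefSeq start of *Acta2*, 161 and 99 before that of *Myl9* and 221 before that of *Tpm1*. Since GENCODE places an *Acta2* start farther out, both *Acta2* boxes are within an annotated 5′ UTR and only the 30 bases around each are shown. *Tpm1* held another box 80 bases and *Cald1* a box 203 bases before the start, each 1 letter off, and the windows of *Cnn1*, *Tpm2* and *Mylk* held none. Among all 32851 windows of this length, 1.47% held an exact box and 18.6% a box with at most 1 letter off. A match describes the letters of a window and not a bound site.

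All but *Cnn1*, whose counts were too few to rank, had their highest pooled level in the perivascular-like cells, 59 cells that were named by pericyte and mural markers. *Rgs5* (3384 CPM), *Notch3* (428), *Kcnj8* (423) and *Abcc9* (379) were abundant in them, whereas the fibroblast gene *Pdgfra* and the endothelial gene *Pecam1* were at 0. The other CAF-like cells fell into a matrix group of 354 cells led by *Lrrc15*, *Mmp13* and *Cilp*, a hypoxic group of 130 cells led by *Pgf* and *Ndrg1*, an adventitial-type group of 106 cells led by *Pi16*, *Ptx3* and *Clec3b*, and 82 cells that also carried melanoma markers. The border between the matrix and hypoxic groups was not stable. With gene names in another sort order before clustering, 59 of the 60 perivascular-like cells were the same (*Acta2* at 5582 CPM), but 282 matrix and 130 hypoxic group cells fell into 1 group (*Acta2* at 322 CPM), and 71 matrix group cells into another led by cell cycle genes (*Acta2* at 495). Comparisons of the matrix with the hypoxic group depend on that order. The levels by class are descriptions without a test, since the classes were drawn from the same cells.

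The actin genes were far more abundant in perivascular-like cells than in the other fibroblast groups. *Acta2*, which encodes smooth muscle alpha-actin, stood at 5708 CPM in perivascular-like cells and at 466 in the matrix group, with all tumours pooled. It was 51.2 in the hypoxic group, 51.3 in the adventitial-type group, 66.6 in 36 endothelial-like cells, 5.73 in TAM-like cells (tumour-associated macrophages) and 0.264 in melanoma-like cells. In the 3 tumours with at least 10 perivascular-like cells, *Acta2* was 5589, 5739 and 4722 CPM (Atf4wt/wt tumours 2 and 4 and Atf4D/D tumour 4), a narrow range beside that between classes. *Actg2*, the gamma-actin of enteric smooth muscle, was 352 in perivascular-like cells, 13.9 in the matrix group and 0 in the hypoxic and adventitial-type groups. A count of 0 allows up to 5.69 CPM in the hypoxic group and 6.16 in the adventitial-type group (3 counts, for counting error only).

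Of the genes for proteins on the actin filament, *Tagln* (transgelin, SM22) was 1895 CPM in perivascular-like cells, 299 in the matrix group, 216 in the hypoxic group and 51.3 in the adventitial-type group. *Tpm2*, a tropomyosin of muscle and fibroblasts, was 1176, 366, 428 and 53.4 in the same order, so that it was as high in the hypoxic group as in the matrix group. *Tpm1*, a tropomyosin gene with muscle and non-muscle isoforms that these 3′ counts do not separate, was 1329, 413, 252 and 142. Unlike the others, *Tpm1* was also plain in immune cells, at 126 in TAM-like and 45.1 in T/NK-like cells, and it stood at 329 in melanoma-like cells. *Cald1*, caldesmon, which also has a non-muscle form, was the most evenly spread within fibroblasts, at 2263 in perivascular-like cells, 1468 in the matrix group, 1249 in the hypoxic group and 901 in the adventitial-type group. *Cnn1*, calponin 1, a marker of differentiated smooth muscle, had 2 UMIs in all 731 CAF-like cells, 1 of them in a perivascular-like cell, so its levels cannot be ranked between classes.

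The myosin genes and their kinase were low in the matrix, hypoxic and adventitial-type groups. *Myh11*, the smooth muscle myosin heavy chain, had 44 of its 45 CAF-like UMIs in perivascular-like cells, where it was 242 CPM, and 0 in the matrix, hypoxic and adventitial-type groups. In the matrix group this count of 0 allows up to 1.74 CPM. *Myl9*, the regulatory light chain, was 808 in perivascular-like cells, 39.5 in the matrix group and 1.90 in the hypoxic group. *Mylk*, the kinase that phosphorylates that light chain, was 599 in perivascular-like cells and 9.29 in the matrix group. Its level in the CAF-like cells with melanoma markers, 73.9, was nearer to that of melanoma-like cells, 48.8, than to the matrix group.

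**Figure D1:**
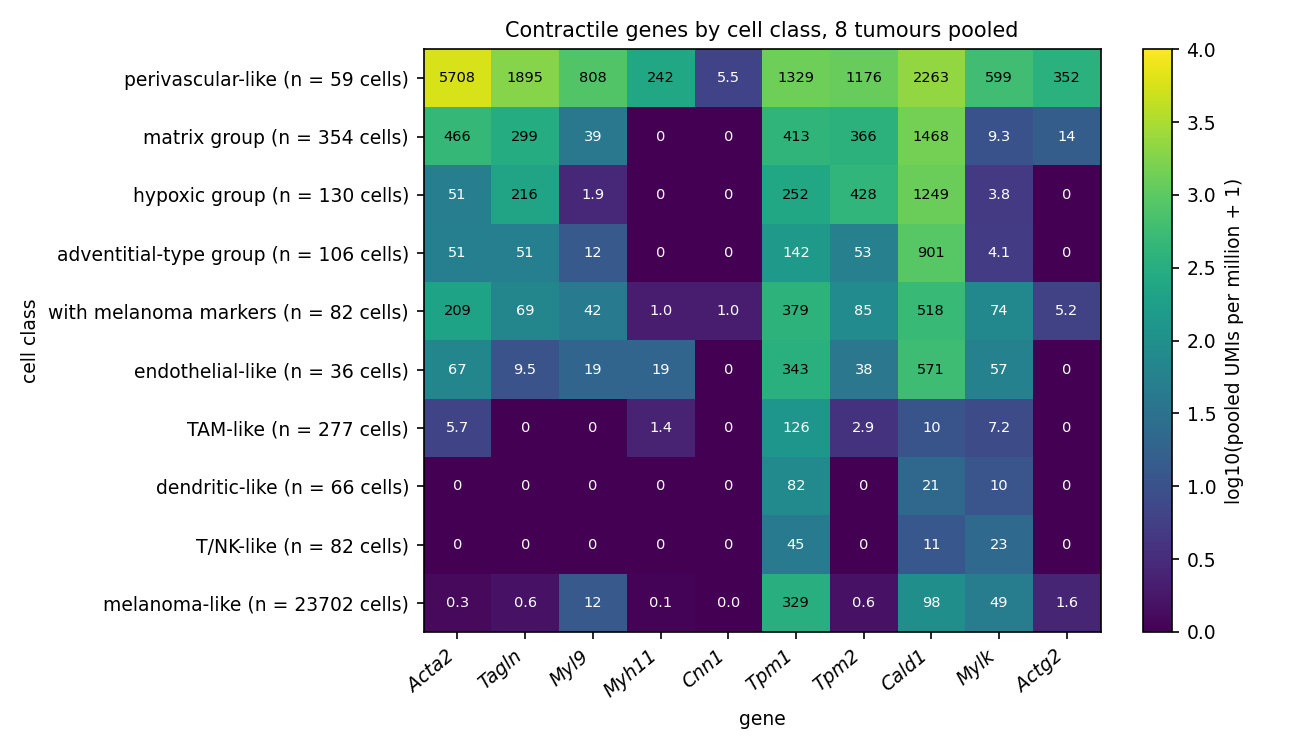
Level of each contractile gene (columns) in each cell class (lines of cells), as pooled CPM over the 8 tumours, printed in each field and coloured on a log10 scale. All genes but *Cnn1*, which rests on 1 UMI there, are highest in perivascular-like cells, *Acta2* at 5708, and *Tpm1* is the most abundant of the genes in the immune classes.

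Shares of cells gave the same order as the levels at matched depth. With each cell thinned to 1000 UMIs, which left out 2 of 59 perivascular-like and 13 of 354 matrix group cells, *Acta2* was found in 86.0% of perivascular-like cells (95% exact binomial interval 74.2 to 93.7%) and in 25.8% of matrix group cells (21.2 to 30.8%). The same share was 0.791% in TAM-like cells (24 of 277 left out) and 0.0506% in melanoma-like cells, classes that should lack the gene. Before thinning the shares of cells with *Acta2* were 88.1%, 48.0%, 1.44% and 0.253%, at median depths of 2600, 4722, 2379 and 10308 UMIs per cell. *Tagln* was found in 57.9% of thinned perivascular-like and 14.96% of matrix group cells, *Tpm2* in 64.9% and 25.2%, and *Cald1* in 89.5% and 74.2%. *Tagln* and *Cald1* were each in 0% of the 253 thinned TAM-like cells (upper bound 1.45%) and *Tpm2* in 0.395%. For *Myl9* the shares were 43.9% and 3.81%, for *Mylk* 42.1% and 1.47%, for *Actg2* 17.5% and 1.17%, and for *Myh11* 15.8% and 0% (upper bound 1.08%). *Tpm1* was in 70.2% of perivascular-like, 30.5% of matrix group, 26.3% of melanoma-like and 10.3% of TAM-like cells. Fibroblasts of the matrix group carried *Acta2*, *Tagln*, *Tpm2* and *Cald1* above the share in macrophages, whereas *Mylk* and *Actg2* were rare in them.

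The perivascular-like cells were not uniform. *Acta2* had a median of 11 UMIs per cell and a maximum of 93, and 31 of the 59 cells had at least 10. *Tagln* had a median of 2 and a maximum of 50 UMIs, so that it was more concentrated in single cells. Across the 59 cells, the log-scale level of *Acta2* went with that of *Tagln* (Pearson r 0.75), *Myl9* (0.62), *Tpm2* (0.53), *Tpm1* (0.48), *Actg2* (0.44), *Mylk* (0.40) and *Myh11* (0.33), and with *Cald1* hardly at all (0.01). These values describe cells of 7 tumours that share libraries and depth, and the 31 cells with at least 10 *Acta2* UMIs had a median depth of 3754 UMIs against 1913 in the other 28. The pericyte gene *Rgs5* had r of -0.26 to *Acta2* and -0.41 to *Tagln*, but 0.22 to *Myh11*, 0.15 to *Mylk* and 0.04 to *Cald1*. With the other members its r lay between -0.17 (*Actg2*) and -0.08 (*Tpm1*). *Actg2* was found in 15 cells and *Myh11* in 27, and 12 cells held both.

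Much of the set in CAF-like cells was in the 59 perivascular-like cells. Perivascular-like cells were 8.07% of CAF-like cells and 4.69% of their UMIs, and they held 49.6% of the *Acta2* UMIs, 56.1% of *Myl9*, 54.5% of *Mylk*, 68.8% of *Actg2* and 97.8% of *Myh11*. They held less of *Tagln* (32.4%), *Tpm2* (18.2%), *Tpm1* (15.9%) and *Cald1* (9.08%), for which the matrix group was the larger source with 48.4%, 53.5%, 46.8% and 55.7%. By tumour, 39.1, 74.8, 27.6 and 52.5% of the *Acta2* UMIs were in perivascular-like cells in Atf4wt/wt tumours 1 to 4, and 11.2, 0, 86.0 and 45.7% in Atf4D/D tumours 1 to 4. In Atf4D/D tumour 3, 104 of the 121 *Acta2* UMIs came from 2 cells.

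**Figure D2:**
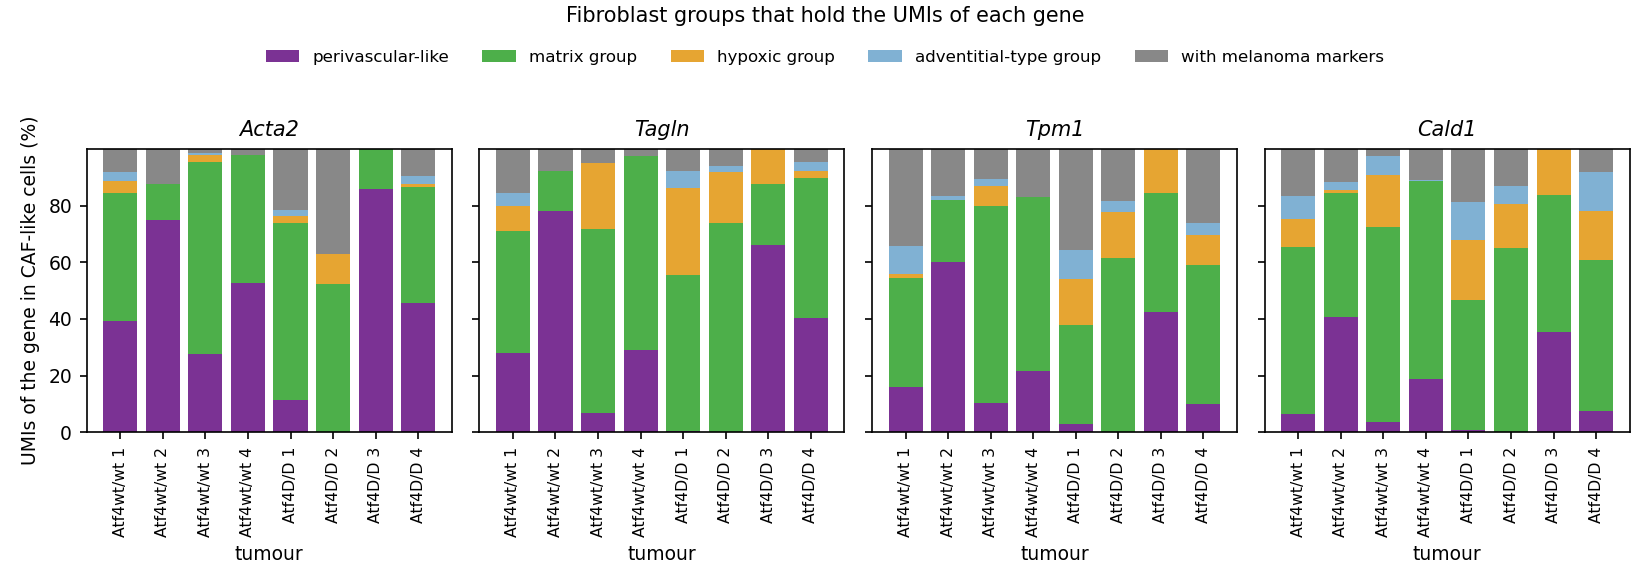
Share of the UMIs of *Acta2*, *Tagln*, *Tpm1* and *Cald1* in CAF-like cells (%, vertical axis) that each fibroblast group holds, 1 bar for each of the 8 tumours. Perivascular-like cells hold between 0 and 86.0% of the *Acta2* UMIs of a tumour, and a smaller part of *Cald1* in every tumour that has such cells.

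Melanoma RNA was present in the CAF-like sums in unequal amounts. By their melanoma markers, between 6.18 and 31.5% of the UMIs of CAF-like cells in a tumour were of melanoma origin, and 63.5 to 93.3% in the 82 cells with melanoma markers. At melanoma-like levels this share would bring 289 of the 1520 *Tpm1* UMIs and 44.8 of the 200 *Mylk* UMIs, but 0.311 of the 2095 *Acta2* UMIs and 76.9 of the 4537 *Cald1* UMIs. Perivascular RNA in the matrix group was estimated in the same way from mural markers at 0.145% of UMIs, which would bring 14.3 of the 803 *Acta2* UMIs found there. Without the CAF-like cells richest in melanoma RNA, the test between genotypes described next still called 0 members. Skeletal muscle markers summed to at most 9.45 CPM in CAF-like cells of any tumour, cardiac markers to at most 22.0, and keratinocyte markers were at 0.

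Between host genotypes, none of the contractile genes that could be tested in CAF-like cells was called by the test over tumours. *Acta2* was 476, 2180, 507 and 1128 CPM in CAF-like cells of Atf4wt/wt tumours 1 to 4, and 310, 104, 2964 and 361 in Atf4D/D tumours 1 to 4. Of the Atf4D/D tumours, 3 were below all Atf4wt/wt tumours and the remaining one, tumour 3, was the highest of the 8, so the groups overlapped. The means were 1073 ± 797 and 934 ± 1357 (SD, n = 4 each). In edgeR the log2 fold change of *Acta2*, Atf4D/D against Atf4wt/wt, was -0.66 ± 0.78 (SE), with an adjusted p of 0.980 over the 4648 genes tested. Without Atf4D/D tumour 3 it was -1.96 ± 0.51 (adjusted p of 0.279 in edgeR), and without Atf4wt/wt tumour 2 it was -0.15 ± 0.76, so the size rests on these tumours.

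*Tagln* was 266, 681, 403 and 369 CPM in CAF-like cells of the Atf4wt/wt tumours and 250, 113, 1372 and 198 in those of the Atf4D/D tumours. Its mean was slightly higher in Atf4D/D tumours (483 ± 595 against 430 ± 178), while its fitted log2 fold change was -0.41 ± 0.56 with an adjusted p of 0.985 in edgeR. With 1 tumour left out at a time, that fold change was -1.12 to 0.04. *Tpm2* showed the same difference in sign, with 251, 668, 437 and 325 against 237, 200, 1053 and 271, a mean of 420 ± 182 against 440 ± 410, and a log2 fold change of -0.33 ± 0.42. For *Tpm2* the range with 1 tumour left out was -0.76 to -0.06. *Tpm1* was 369, 738, 383 and 463 in Atf4wt/wt and 299, 281, 637 and 401 in Atf4D/D tumours (log2 fold change -0.39 ± 0.25, edgeR adjusted p of 0.899). *Cald1* varied least, from 1081 to 1490 and from 1022 to 1519, with a log2 fold change of -0.14 ± 0.15.

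Of the genes tested, *Myl9* and *Mylk*, mostly found in perivascular-like cells, had the largest fitted differences. *Myl9* was 38.4, 264, 53.3 and 167 CPM in CAF-like cells of Atf4wt/wt tumours and 30.6, 9.003, 343 and 53.6 in Atf4D/D tumours. Its log2 fold change was -1.43 ± 0.67 with an edgeR adjusted p of 0.765, and -1.77 to -0.91 with 1 tumour left out. *Mylk* was 53.2, 220, 16.7 and 101 against 27.8, 9.003, 122 and 44.2, with a log2 fold change of -1.41 ± 0.58 and an edgeR adjusted p of 0.728 (0.0301 before adjustment). With 1 tumour left out, the fold change of *Mylk* was -1.84 to -0.73. The groups overlapped for both genes.

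*Myh11*, *Cnn1* and *Actg2* were too low for the filter of the test. *Myh11* was 5.91, 65.9, 3.33 and 28.4 CPM in Atf4wt/wt tumours and 0, 0, 0 and 12.1 in Atf4D/D tumours, where the counts of 0 allow up to 4.17, 6.75 and 73.5. Its 45 UMIs were 27 in Atf4wt/wt and 18 in Atf4D/D tumours. *Actg2* was 11.8, 132, 3.33 and 53.6 against 0, 0, 245 and 20.8. *Cnn1* was seen in 2 Atf4wt/wt tumours, with 1 UMI in each. With every gene tested that had any count, the test called *Myl9* (log2 fold change -1.40, edgeR adjusted p of 1.55e-05), *Mylk* (-1.38, 0.000107) and *Actg2* (-1.49, 0.00899) lower in Atf4D/D tumours. In that setting 98 of 15446 genes were called, against 2 of 4648 with the filter. The mean CPM of *Actg2* went the other way, at 66.4 ± 119 in Atf4D/D and 50.1 ± 58.7 in Atf4wt/wt tumours, with Atf4D/D tumour 3 at 245.

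Read against the other genes, the 7 tested members show a common sign and no call. All 7 log2 fold changes were below 0 with a median of -0.41, whereas 51.9% of the 4648 genes were below 0 with a median of -0.01. An adjusted p under 0.05 was reached by 0 of 7 members and by 0.043% of the genes, which are *Atf4* itself (-1.28) and *Cck* (2.76, which encodes cholecystokinin). An unadjusted p under 0.05 was reached by 1 of 7 members and by 6.48% of the genes, and DESeq2 called 0 members. The genotypes did not overlap for 0 of 7 members and for 3.96% of the genes. The members were measured in the same cells of the same tumours, so their common sign is not 7 separate observations. In these sums, fewer cells of a type and less RNA per cell cannot be told apart.

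**Figure D3:**
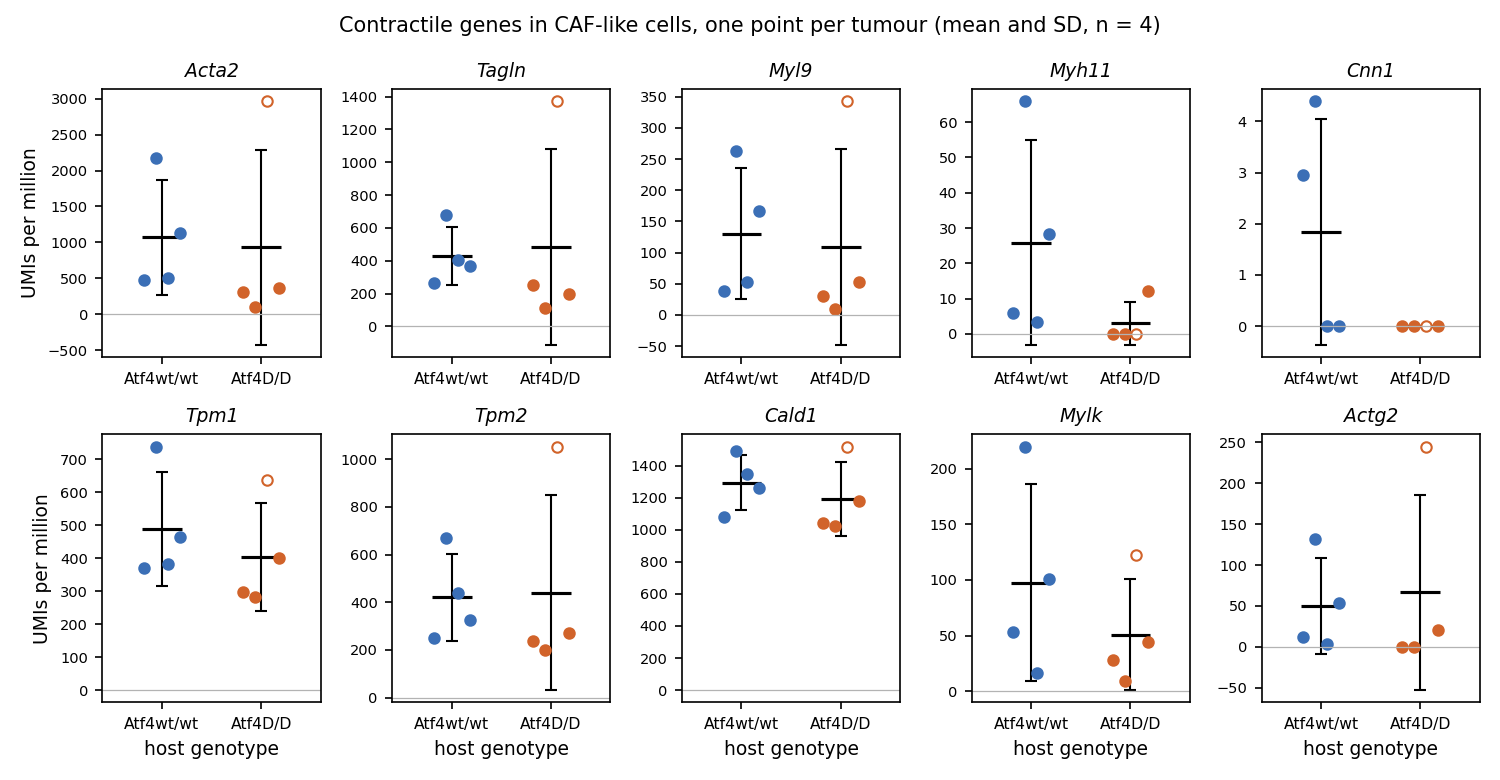
Level of the 10 contractile genes in CAF-like cells (CPM, vertical axis), 1 point for each tumour, with the mean and SD of 4 tumours for each host genotype. The open point is Atf4D/D tumour 3, the sum of 10 cells, which is the highest Atf4D/D value for every gene but *Myh11* and *Cnn1*.

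Markers of mural cells also differed between tumours. The 9 mural markers, all of them detected in both genotypes, summed to 682 to 2936 CPM in CAF-like cells of Atf4wt/wt tumours and to 353 to 885 in those of Atf4D/D tumours. *Ndufa4l2*, which the matrix and hypoxic groups also carry, had the most UMIs of these markers in CAF-like cells (2064, beside 723 of *Rgs5*). This sum is thus not of mural cells alone. The 5 further smooth muscle markers, *Rgs4* and *Gja4* among them, summed to 23.6 to 167 and to 0 to 35.5. Both sums were highest in Atf4wt/wt tumour 2 (2936 and 167). Atf4D/D tumour 3, the highest of the 8 for *Acta2*, had 808 CPM of mural markers and 0 UMIs of the further markers. With only 40826 UMIs in its CAF-like cells, that 0 does not show a lower level of the further markers. The part of both marker sums in the levels of the contractile genes was not tested. Perivascular-like cells were 7.04, 39.2, 4.69 and 17.1% of CAF-like cells in Atf4wt/wt tumours 1 to 4 (mean 17.02 ± 15.8%) and 0.8, 0, 20 and 6.58% in Atf4D/D tumours 1 to 4 (6.85 ± 9.25%). The difference of -10.2 percentage points had p = 0.286 in a two-sided exact permutation test, whose 70 assignments of 8 tumours cannot give less than 0.0286. Without Atf4wt/wt tumour 2 the difference was -2.78 percentage points, and without Atf4D/D tumour 3, whose 20% is 2 of 10 cells, it was -14.6. In Atf4D/D tumour 2, 0 of 97 CAF-like cells were perivascular-like, with an upper bound of 3.73% by the exact binomial interval.

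Members within perivascular-like cells could not be tested between genotypes, because 2 Atf4wt/wt tumours and 1 Atf4D/D tumour had at least 10 such cells. A broader set, the CAF-like cells with at least 2 UMIs over the mural markers, gave 7 members tested and 0 called, beside 0.0285% of 3505 genes (6 of 7 members and 8.79% of genes at an unadjusted p under 0.05), with Atf4D/D tumour 3 left out for its 6 cells. In it *Acta2* had a log2 fold change of -2.07 ± 0.58 (edgeR adjusted p of 0.265) and *Tagln* one of -1.47 ± 0.39 (adjusted p of 0.234). Among those markers, *Ndufa4l2* is also carried by the matrix and hypoxic groups, so that set is not made of mural cells alone. It held 43, 42, 27 and 47 cells in Atf4wt/wt tumours 1 to 4 and 72, 35 and 149 in Atf4D/D tumours 1, 2 and 4. Without *Ndufa4l2* these were 11, 32, 4 and 16, and 7, 3 and 26. Most of the set thus entered through *Ndufa4l2* in each tumour used but Atf4wt/wt tumour 2.

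With the perivascular-like cells left out, *Acta2* was still lower in the Atf4D/D tumours that could be used, without passing the threshold over all genes. It was 299, 776, 377 and 597 CPM in the Atf4wt/wt tumours and 276, 104 and 203 in Atf4D/D tumours 1, 2 and 4. Atf4D/D tumour 3 kept 8 cells, too few for the fit, and its value of 540 lies within the Atf4wt/wt range. The log2 fold change was -1.30 ± 0.32 with an edgeR p of 0.00114 and an adjusted p of 0.217. In this setting 332 of 4937 genes had an unadjusted p under 0.05. *Tagln* was lower by the same fit (-0.72 ± 0.29, edgeR adjusted p of 0.662), and so were *Myl9* (-0.92 ± 0.43), *Tpm2* (-0.47 ± 0.23) and *Tpm1* (-0.19 ± 0.16), of which none passed.

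*Acta2* in the matrix group alone was 534, 650, 544 and 878 CPM in Atf4wt/wt tumours, and 567, 105 and 357 in Atf4D/D tumours 1, 2 and 4. The 2 ranges overlapped, since Atf4D/D tumour 1 was above Atf4wt/wt tumours 1 and 3, and the 6 matrix group cells of Atf4D/D tumour 3 gave 730. The log2 fold change was -0.90 ± 0.33 (edgeR adjusted p of 0.537), with *Tagln* at -0.37 ± 0.27, *Tpm2* at -0.45 ± 0.23, *Tpm1* at -0.11 ± 0.19 and *Cald1* at -0.10 ± 0.14. *Myl9*, *Mylk*, *Myh11*, *Cnn1* and *Actg2* were too low in the matrix group to be tested.

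**Figure D4:**
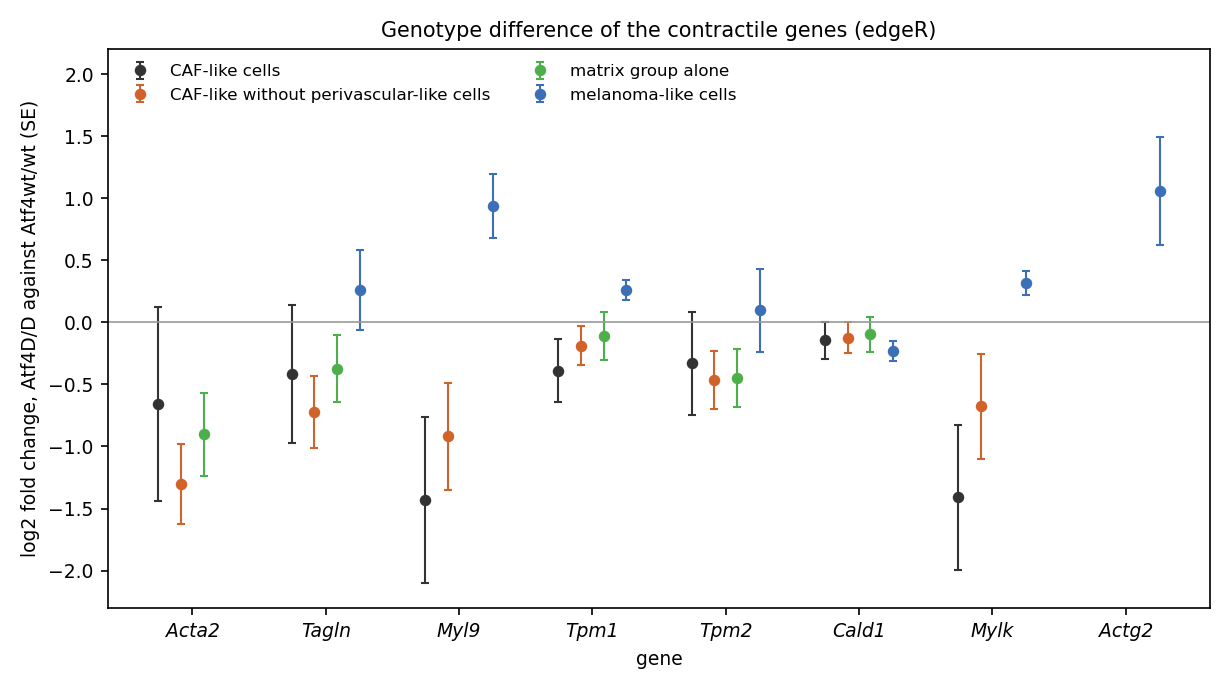
Log2 fold change (vertical axis) of the contractile genes that could be tested, Atf4D/D against Atf4wt/wt hosts, with its SE, from edgeR sums over CAF-like cells, CAF-like cells without the perivascular-like ones, the matrix group alone and melanoma-like cells. Values in the 3 fibroblast sets lie below 0, those in melanoma-like cells lie above 0 except for *Cald1*, and none of the points passed an adjusted p of 0.05.

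Genes that work with the contractile set were also without a call in CAF-like cells. Of 28 listed smooth muscle partners 11 were tested, 3 higher and 8 lower in Atf4D/D tumours by sign, 0 called, with a median log2 fold change of -0.21. The most abundant were *Crip1* (1541 CPM in Atf4wt/wt and 1063 in Atf4D/D tumours), a LIM protein, *Csrp2* (483 and 348), a LIM protein of smooth muscle, *Flna* (251 and 232), filamin A, and *Actn1* (202 and 214), alpha-actinin 1. Of 12 non-muscle counterparts 11 were tested, 3 higher and 8 lower, 0 called, with a median of -0.10. *Actb*, the cytoplasmic beta-actin, was 4906 and 4774, *Actg1*, the cytoplasmic gamma-actin, 3098 and 2805, and *Myl6*, the essential light chain of non-muscle and smooth muscle myosin, 1384 and 1197. Of 18 listed regulators 11 were tested, 1 higher and 10 lower, 0 called, with a median of -0.16. *Rhoa*, the small GTPase upstream of myosin phosphorylation, was 464 and 472, and *Cyr61*, a target of the MRTF and YAP cofactors, 344 and 280.

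Melanoma-like cells, 23702 in number, expressed *Tpm1*, *Cald1*, *Mylk* and *Myl9* from the tumour genome, in which *Atf4* is intact. *Tpm1* was 322, 269, 310 and 275 CPM in melanoma-like cells of Atf4wt/wt hosts and 388, 338, 349 and 371 in those of Atf4D/D hosts, which did not overlap. Its log2 fold change was 0.26 ± 0.08, with an edgeR adjusted p of 0.311 over 12556 genes. *Mylk*, at 39.6, 43.4, 42.6 and 46.8 against 51.6, 50.6, 51.1 and 67.1, did not overlap either (0.32 ± 0.10, edgeR adjusted p of 0.311). Thus 2 of 7 tested members did not overlap between hosts, beside 6.6% of all genes.

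*Myl9* was 6.75, 9.67, 9.39 and 8.43 CPM in melanoma-like cells of Atf4wt/wt hosts and 22.1, 16.7, 8.43 and 19.8 in those of Atf4D/D hosts, where tumour 3 lay within the Atf4wt/wt range. Its log2 fold change was 0.94 ± 0.26 (edgeR p of 0.00362, adjusted p of 0.258), and without Atf4D/D tumour 3 it was 1.17 with an adjusted p of 0.0325, the only call on a member in this class among the settings run. *Cald1* pointed the other way, at 106, 95.6, 113 and 104 against 91.9, 101, 93.1 and 80.4 (-0.23 ± 0.08, edgeR adjusted p of 0.345). *Actg2* stayed between 0.575 and 4.31, and *Acta2*, *Tagln* and *Tpm2* below 1 in each tumour. In all, 0 of 7 tested members were called, beside 0.0319% of genes by edgeR, which are *S100a6*, *Plat*, *Gm29084* and *Pde10a*. At an unadjusted p under 0.05 the counts were 5 of 7 members and 11.3% of genes, and the median log2 fold change of the members was 0.26.

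Within melanoma-like cells, the same genes were higher in a hypoxic cluster, whose leading genes were *Car9*, *Bnip3*, *Ndrg1*, *Hilpda* and *Slc2a1*. The contractile genes had been kept out of the clustering, and the comparison within a tumour is a description. *Tpm1* was 568 ± 62.6 CPM in the hypoxic cluster and 300 ± 36.0 in the other melanoma-like cells (SD, n = 8 tumours). *Myl9* was 45.1 ± 18.0 and 8.63 ± 3.51, *Cald1* 151 ± 12.1 and 91.8 ± 12.3, and *Mylk* 81.4 ± 20.1 and 45.4 ± 6.86. All 4 were higher in the hypoxic cluster in 8 of 8 tumours, by 4.46 to 6.72 times for *Myl9* and by 1.67 to 2.11 times for *Tpm1*. High *Cald1* and *Mylk* were not particular to it. In a cluster led by *Cck* and *Kcnj13* they were 143 ± 18.3 and 67.9 ± 14.0. *Tpm1* and *Myl9* were 303 ± 35.0 and 12.9 ± 5.95 in that cluster. *Acta2* was higher in the hypoxic cluster in 2 of 8 tumours, with means of 0.307 and 0.301. The hypoxic cluster made up 11.2, 19.8, 10.3 and 3.73% of melanoma-like cells in Atf4wt/wt hosts and 18.6, 10.3, 14.4 and 19.0% in Atf4D/D hosts. Without it the log2 fold changes between hosts were 0.73 for *Myl9*, 0.23 for *Tpm1* and 0.28 for *Mylk*.

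**Figure D5:**
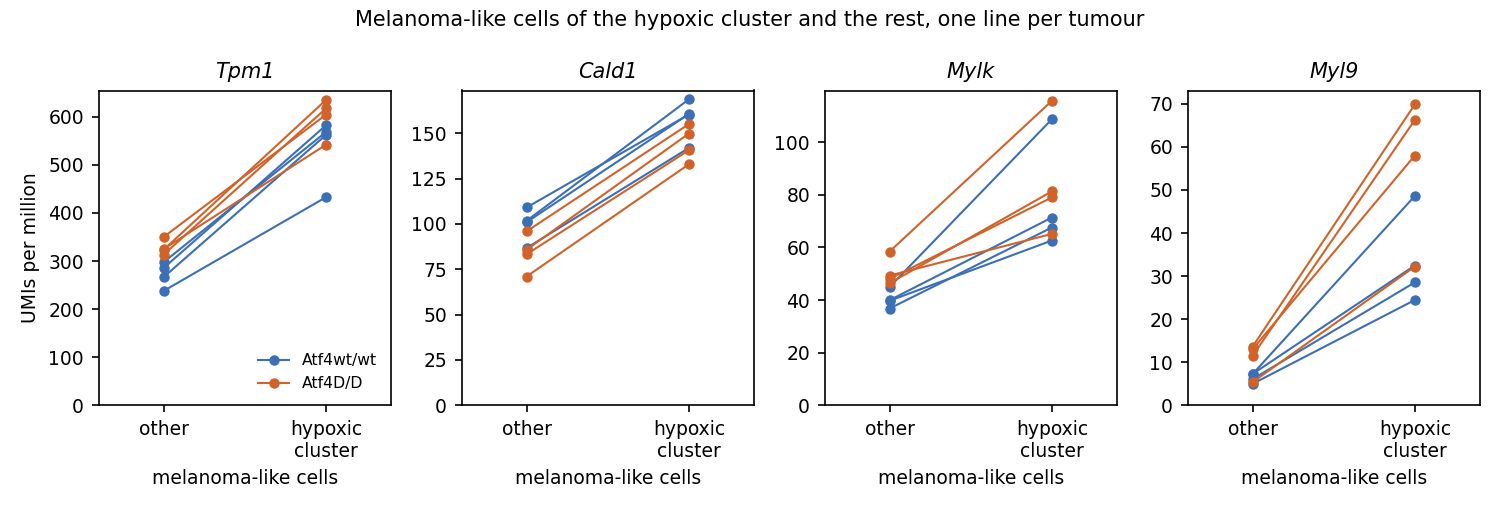
Level of *Tpm1*, *Cald1*, *Mylk* and *Myl9* (CPM, vertical axis) in melanoma-like cells of the hypoxic cluster and in the other melanoma-like cells, 1 line for each tumour, coloured by host genotype. Each of the 8 lines rises in each panel, and *Myl9* shows the largest ratios, 4.46 to 6.72.

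The host genotype difference was compared between CAF-like and melanoma-like cells for the 6 members that passed the expression filter in both. Effects were differences of mean log2(CPM + 10), a scale that shrinks changes at low levels. *Tagln* and *Tpm2* averaged 0.589 and 0.587 CPM in melanoma-like cells, so their effect there was held near 0. The exact two-sided permutation test of the difference of effects gave p between 0.200 (*Tpm1*) and 0.857 (*Cald1*), none under 0.05 before adjustment. For *Myl9* the effect in CAF-like cells less the one in melanoma-like cells came to -1.27 on that scale (p = 0.314 by that exact test). It is not the difference of the edgeR fold changes. With 4 tumours per genotype and the spread seen in CAF-like cells, opposite signs in the 2 classes were thus not shown to differ.

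Across fibroblast groups, a few genes outside the set followed it closely. Over 21 sums, each 1 fibroblast group in 1 tumour with at least 10 cells, the 10 genes summed to 13402 to 14161 CPM in perivascular-like cells, 2117 to 3771 in the matrix group, 1908 to 3072 in the hypoxic group and 591 to 1477 in the adventitial-type group. Among 3044 other genes, those most correlated with this sum on the log2 scale included *Myl6* (Pearson r 0.93), *Myl12a* (0.92), *Tmsb4x* (0.90), *Gng11* (0.89), *Pdgfa* (0.89), *Itgb1* (0.88), *Sept7* (0.88), *Sept4* (0.88) and *Cspg4* (0.87). *Myl6* and *Myl12a* encode myosin light chains, *Tmsb4x* the actin-binding thymosin beta 4, and *Cspg4* the pericyte surface proteoglycan NG2. The points share tumours and differ in depth and in melanoma RNA.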

How the data were processed

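UMI counts of single cells from 8 B16F10 tumours were analysed, 4 per host genotype, grouped by the sample titles. For each tumour the authors deposited 1 matrix of raw UMI counts, genes by barcodes, which Cell Ranger had made from 10x 3′ reads on GRCm38. The values are not normalized. The submitters' processing notes name Cell Ranger 3.1.0 and Seurat 3.2.1, and the labels name the V3 kit where the methods name V2.

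The study's limits were applied, 200 to 5000 genes and no more than 7.5% mitochondrial UMIs in a cell, and at least 3 cells for a gene. In Seurat 5.3.0 (R 4.3.3) both genotypes were integrated (2000 variable genes, 20 principal components), leaving out 71 symbols of contractile and related genes but not *Notch3*. Resolution 0.6 gave 15 clusters, the nearest to the study's 16, and fibroblasts were clustered again at 0.4 into 5 groups and immune cells at 0.2. Clusters were named by marker lists, the TAM-like one with 1 marker of its class among its 10 leading genes. A cluster of high mitochondrial share (243 cells, 231 of them in Atf4wt/wt tumour 4) was removed. The study's own cell names were not used here, and the borders of its classes may differ. Apart from the upper limit on genes no doublets were removed, and no doublet caller was run, so cells that hold RNA of 2 types remain.

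For every class, the UMIs of a tumour were added up if 10 or more of its cells were in that class, and are given as CPM of the sum. The sums were tested with edgeR 4.0.16 (expression filter, TMM, quasi-likelihood test, Benjamini-Hochberg over all genes tested, threshold 0.05). The replicates are tumours of separate mice, and chi-square per gene between replicates of a genotype was 2.22 to 4.05, so none repeats another. CAF-like sums held 40826 to 1492129 UMIs and limit which genes can be tested. Alternatives used limma 3.58.1 and DESeq2 1.42.0, and the matrices were read with Matrix 1.6.5. Shares of cells were compared by exact permutation, intervals are 95% exact binomial, a level of 0 was given the limit of 3 counts, and both cover counting error only.

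The 10 genes are named in the levels by class and in the main comparison of CAF-like cells, and in part in the other comparisons. Of the listed partners, counterparts and regulators, genes past the threshold were to be named, otherwise up to 4 of the most abundant in CAF-like cells. Genes of like pattern are the 10 with the highest r among genes of at least 50 CPM, on log2(CPM + 10), of which 1 is not reported here. The members, the lists and the alternatives were chosen with earlier results of these data known. *Cck*, *S100a6*, *Plat*, *Gm29084* and *Pde10a* were named after their values were seen.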

Additional observations from a re-analysis of the deposited data

Results flagged for a closer look

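Single tumours stood apart from the other 3 of their genotype for 8 of 52 sets of 4 values, by a gap rule that chance meets in about 1 of 20. Of these, 5 are the same tumour. In CAF-like cells of Atf4D/D tumour 3, *Acta2* (2964 CPM), *Tagln* (1372), *Tpm2* (1053), *Myl9* (343) and *Actg2* (245) were far above the other Atf4D/D tumours. This sum holds 10 cells, and 2 perivascular-like cells gave 104 of its 121 *Acta2* UMIs. In CAF-like cells of Atf4D/D tumour 4, *Myh11* was 12.1 CPM against 0 in the other Atf4D/D tumours, and 16 of the 19 perivascular-like cells of that genotype were in this tumour. In melanoma-like cells, *Mylk* stood apart in Atf4D/D tumour 4 (67.1) and *Tpm2* in Atf4wt/wt tumour 4 (0.863), the latter at a level near 0 in all tumours.

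The contractile genes were also found in the 13757 barcodes that entered no class, because they failed a filter or were in the removed cluster. These barcodes held 147 UMIs of *Acta2*, 156 of *Tagln*, 122 of *Tpm2*, 165 of *Actg2*, 17 of *Myh11* and 5 of *Cnn1*, and 28124 of *Tpm1*, 11393 of *Cald1*, 5164 of *Mylk* and 1001 of *Myl9*. In CPM over these barcodes this is 1.31 for *Acta2*, 251 for *Tpm1*, 102 for *Cald1* and 46.1 for *Mylk*, beside pooled levels of 0.264, 329, 98.0 and 48.8 in melanoma-like cells. Their cells were not classed and were not compared between genotypes.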

How the results depend on the processing

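Of 163 fold changes of members in CAF-like cells under alternatives, 159 kept their direction and their side of the threshold, and of 112 in melanoma-like cells 107 did. Those that changed sign were *Tagln* in CAF-like cells (0.089 with DESeq2, and -1.12 to 0.040 with 1 tumour left out, above 0 without Atf4D/D tumour 2), and in melanoma-like cells *Tpm2* (-0.047 with *Xist* as covariate, and -0.25 to 0.34 with 1 tumour left out, below 0 without Atf4wt/wt tumour 1 or Atf4D/D tumour 4) and *Tagln* (-0.019 to 0.49, below 0 without Atf4wt/wt tumour 1), all without a call. The number of members called in CAF-like cells, 0, became 3 without the expression filter and did not change in the other alternatives. In melanoma-like cells it was 0 to 1 with 1 tumour left out at a time, the 1 being *Myl9*. The number of genes called in CAF-like cells, 2, was 98 without the filter, 4 with DESeq2, 6 in the matrix group alone, 14 without perivascular-like cells and the group with melanoma markers, 3 without perivascular-like cells and also without Atf4wt/wt tumour 2 and Atf4D/D tumour 3, 0 with the replicate block, sex as labelled, *Xist*, equal weight of cells (limma) or without cells carrying melanoma RNA, and 0 to 2 with 1 tumour left out. In melanoma-like cells 4 genes were called, 46 without the filter, 119 with DESeq2, 0 with the replicate block, sex as labelled, *Xist* or without the hypoxic cluster, and 0 to 21 with 1 tumour left out, 21 without Atf4D/D tumour 3. The cause of these differences was not tested. Replicate numbers did not pair the tumours: same-numbered tumours correlated at -0.14 to 0.16 in CAF-like and -0.36 to -0.05 in melanoma-like cells, and the best match was the own number in 2 and 0 of 4 cases. With the replicate block, 0 members were called in either class, and the block gave p = 0.5 for the perivascular-like share by exact permutation. That share differed by -14.6 to -2.78 percentage points with 1 tumour left out (exact permutation p of 0.143 to 0.6). It differed by -10.7 with another sort order of gene names before clustering and by -11.8 without cells carrying melanoma RNA. A share defined otherwise, by a gate of at least 2 UMIs over the mural markers, differed by -9.31, and by -12.0 with the gate without *Ndufa4l2*. Tests in perivascular-like cells and their alternatives were not run, and the gate without *Ndufa4l2* could not be fitted, since 1 Atf4D/D tumour had at least 10 cells. That sort order breaks ties among variable genes, and it left the count of members called at 0 and the calls at 2 genes in CAF-like and 4 in melanoma-like cells. The sort order, the *Xist* covariate, the matrix group alone, the set without the hypoxic cluster, the set without perivascular-like cells and melanoma markers, the gate without *Ndufa4l2* and the set without 2 tumours were chosen after seeing the data. Depth limits *Myh11*, *Cnn1* and *Actg2* in CAF-like cells, with 45, 2 and 93 UMIs in all.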
